A study of Drosophila melanogaster with 6 samples.

Results

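Binding sites of Cmi in embryos were compared with those in larvae of the third instar, using the peaks of both lists on 2L, 2R, 3L, 3R, 4 and X. The comparison holds 15013 embryonic and 6426 larval peaks, 21439 of the 37144 peaks in the 4 lists of the series. An embryonic peak was called kept when it shared at least 1 bp with a larval peak, and not called in larvae otherwise. By this rule 4649 embryonic peaks were kept and 10364 were not called, and 4319 larval peaks had an embryonic counterpart while 2107 had none.

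Binding was mapped by chromatin immunoprecipitation with sequencing (ChIP-seq), using an antiserum raised against part of Cmi, also called Lpt. The larval list comes from 1 library of whole wandering larvae of the genotype Y cn bw sp, a label that all 6 samples of the series carry. The embryo list comes from data published earlier, which the submitters analysed in parallel, and for it the sources used here give no genotype, chromatin preparation or depth. Lists from whole white prepupae and from S2 cells, a cell line of embryonic origin, were used as further readouts, with 1 library each. Whole animals hold many tissues, so a site bound in a small tissue and a site bound weakly in all cells cannot be told apart. The lists hold no expression values, so the stage labels could not be checked against markers.

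Cmi belongs to the MLR complex, which corresponds in mammals to the assemblies around the histone methyltransferases KMT2C and KMT2D. The fly complex contains the methyltransferase Trr, which places the first methyl group on lysine 4 of histone H3, a mark of enhancers. Enhancers differ widely between developmental stages, and the wandering larva is close to the hormone pulse that starts metamorphosis. Coordinates are on dm3 and are counted from 1. No gene annotation of that build was at hand, so sites are given by position and not by gene.

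Each stage is represented by 1 list, the lists carry no height or p-value per peak, and sequencing depth is unknown. No test between stages was therefore possible. Intervals printed for shares are exact (Clopper-Pearson) 95% intervals, those for medians are exact order-statistic 95% intervals, and those for differences of shares are Newcombe 95% intervals. All of them cover the number of peaks only, treat neighbouring peaks as independent, and say nothing of the spread between animals. A difference in binding and one in depth or peak calling cannot be told apart. Cmi may also be bound where no peak was called.

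Most larval sites were already present in the embryo list, whereas most embryonic sites of the full list were not called in larvae. Over all embryonic peaks 31% were kept (4649 of 15013, 95% interval 30.2 to 31.7). Over all larval peaks 67.2% had an embryonic counterpart (4319 of 6426, 66.0 to 68.4). The embryo list held 2.34 peaks for each larval one, so these shares are not on equal terms. With the 6426 widest peaks of each list, 51.6% (50.4 to 52.8) of embryonic peaks were kept and 54.4% (53.2 to 55.6) of larval peaks had a counterpart, so most embryonic peaks then had one. That setting also picks broad embryonic peaks, which were kept more often, so list length and width were not separated. Embryonic peaks were narrower, with a median of 540 bp (531 to 547) against 795 bp (778 to 818) in larvae. The narrowest peak measured 280 bp in the embryo list and 320 bp in the larva list. Of the 2262 embryonic peaks below 320 bp, 259 (11.5%, 10.2 to 12.8) were kept. Of the 12751 embryonic peaks of 320 bp or more, 4390 (34.4%, 33.6 to 35.3) were kept.

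Kept embryonic peaks were broad. Their median width was 1091 bp (1054 to 1121), with the middle 50% between 560 and 1819 bp. Peaks not called in larvae had a median of 449 bp (442 to 456), with the middle 50% between 336 and 697 bp. Across 10 classes of embryonic width, the share kept lay between 10.7% and 12.4% in the 3 narrowest classes, up to 384 bp. It was 22.2% (20.1 to 24.4) at 541 to 670 bp, 42.8% (40.3 to 45.3) at 873 to 1196 bp and 61.5% (58.9 to 63.9) at 1197 to 1785 bp. In the widest class, from 1787 bp upward, 79.5% (77.4 to 81.5) were kept. Of the 495 embryonic peaks of at least 3000 bp 90.9% were kept, and of the 100 peaks of at least 5000 bp, 96.

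Broad peaks have more room to touch a peak of another list, so the classes were also read with 2 rules in which embryonic width plays no part. When the embryonic midpoint had to lie inside a larval peak, the share was 9.11% in the narrowest of 4 width classes (280 to 358 bp) and 52.1% in the widest (1018 to 15263 bp). When every peak of both lists was set to 500 bp around its midpoint, the shares were 7.57% and 47.2%. The 1 bp rule gave 11.3% (10.3 to 12.4) and 65.5% (64.0 to 67.0). The rise with width was thus present under all 3 rules. In the finer classes it ended at 1197 to 1785 bp when peaks were set to 500 bp, with 50.6% there and 49.3% in the widest class.

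**Figure D1:**
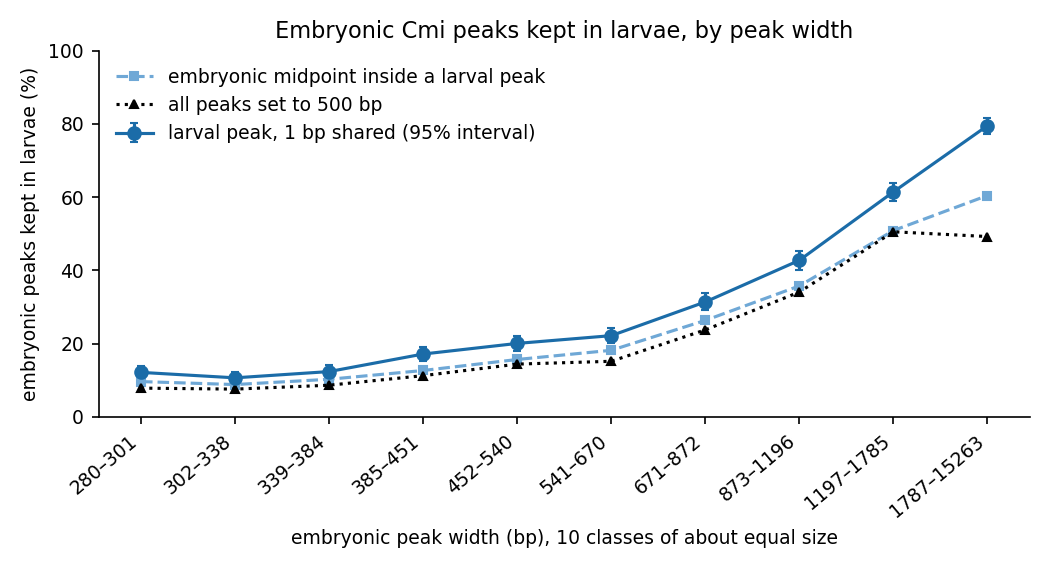
Share of embryonic Cmi peaks kept in larvae (vertical axis, percent) in 10 classes of embryonic peak width (horizontal axis, bp), with exact 95% intervals for the 1 bp rule. The share is 12.2% in the narrowest and 79.5% in the widest class. It is lower under the midpoint rule and with 500 bp peaks. Only with 500 bp peaks does the widest class not exceed the one before it.

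The broadest embryonic peaks showed how a kept site can differ in extent. The widest, on 3R from 12056457 to 12071719 (15263 bp), was covered to 97.1% by 4 larval peaks. The next, on 2L from 19154514 to 19167776 (13263 bp), was covered to 85.1% by 3 larval peaks. Then followed a peak on 2R from 19457929 to 19469918 (11990 bp). It met 2 larval peaks, the wider of 952 bp, and only 8.22% of it was covered. Low cover was also found on 3R from 27522023 to 27533731 (11709 bp, 24.0% covered) and on X from 2211409 to 2220911 (9503 bp, 16.3% covered). On X from 2187511 to 2198849 an embryonic peak of 11339 bp lay wholly inside a larval peak of 14933 bp. The other 4 of the 10 widest kept peaks were covered to between 60.6% and 90.2%. All of these 10 peaks overlapped a prepupal peak, and 9 of them an S2 peak.

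The broadest embryonic peaks without a larval counterpart were not all confined to the embryo list. The widest, on 2R from 2480322 to 2488404, measured 8083 bp, and its nearest larval peak was 9451 bp away. It overlapped a prepupal peak but no S2 peak. Peaks on 3L from 22391870 to 22397611 (5742 bp) and on 3L from 16760028 to 16765709 (5682 bp) overlapped both a prepupal and an S2 peak. The peak on 2L from 4349293 to 4354318 (5026 bp) and the one on X from 10715459 to 10720088 (4630 bp) overlapped neither. Of the 10 widest peaks not called in larvae, 7 overlapped a prepupal peak and 3 an S2 peak. Their distances to the nearest larval peak ran from 110 bp (3R from 22709581 to 22713913) to 9451 bp.

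Kept and not called are separated by a single base pair, and few peaks lay near that border. Of the kept peaks, 142 (3.05%) shared less than 100 bp with their best larval partner. Of the peaks not called, 140 (1.35%) had a larval peak within 100 bp. The median gap from a peak not called to the nearest larval peak was 5021.5 bp (4864 to 5206), and 16.7% (16.0 to 17.4) had a larval peak within 1 kb.

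Most shared sites paired 1 embryonic with 1 larval peak. The overlaps formed 3829 groups, of which 2930 (76.5%) were single pairs. In 494 groups 1 larval peak spanned several embryonic peaks, 1102 in all. In these the median width was 2270 bp for the larval and 652.5 bp for the embryonic peaks. The reverse, 1 embryonic peak over several larval ones, occurred in 256 groups with 551 larval peaks. Both kinds of division therefore occurred, and 1 larval peak over several embryonic ones was the more frequent kind. The embryo list is longer and its peaks are narrower, so these counts are not on equal terms. The remaining 149 groups joined several peaks of each list. The largest group lay on X from 12552404 to 12565473, with 9 embryonic and 2 larval peaks.

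Within the 2930 single pairs the larval peak was usually the narrower. Its median width was 876.5 bp (838 to 909) against 1166.5 bp (1127 to 1207) for the embryonic partner, although larval peaks were wider over the whole lists. The median ratio of larval to embryonic width was 0.801 (0.779 to 0.826). The embryonic peak was wider in 64.1% of pairs (62.4 to 65.9), and the larval peak was wider in 35.8% (34.1 to 37.6). Single pairs leave out the groups in which 1 larval peak spanned several narrower embryonic ones. Overlap also selected for width, more so in the embryo list. The median was 1091 bp for kept and 540 bp for all embryonic peaks, and 959 bp for shared and 795 bp for all larval peaks. Within single pairs the order of the widths went with embryonic width. In 4 classes of embryonic width from narrow to broad, the larval peak was wider in 76.0, 32.0, 20.2 and 14.9% of pairs. Embryonic width is itself a side of this comparison, so such a fall is partly built in. The median larval widths in these classes were 671.5, 670, 907 and 1587.5 bp. The narrowest class ran from 280 to 674 bp. On chromosome 4 the larval peak was wider in 63.9% of 36 pairs. Larval peaks lay wholly inside the embryonic one in 41.4% of pairs (39.6 to 43.2), and the reverse held in 18.0% (16.6 to 19.5). Across pairs, embryonic and larval width (log2) had a Pearson r of 0.38 and a Spearman rho of 0.38 over 2930 pairs from the same 2 libraries. Both lists have a lower limit of width and the pairs were chosen by overlap, so this is a description only.

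**Figure D2:**
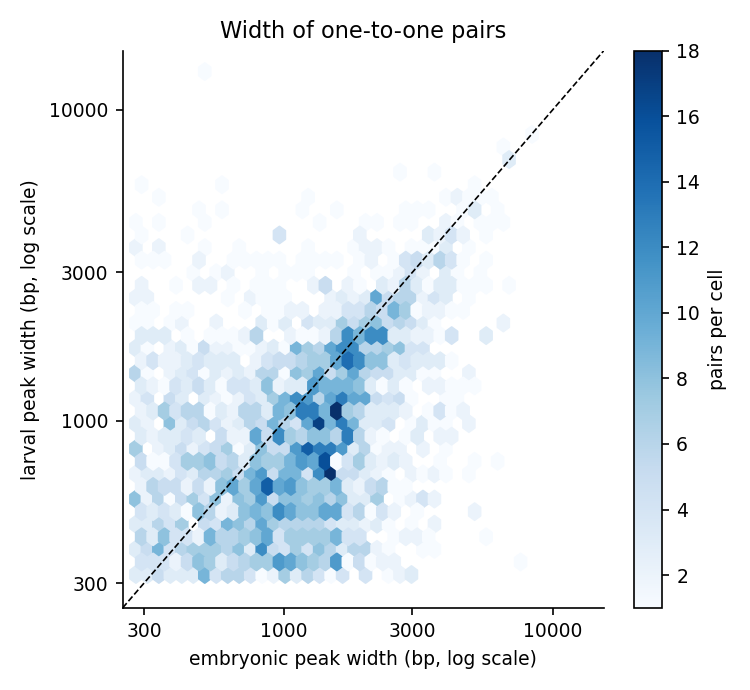
Width of the embryonic peak (horizontal axis, bp, log scale) and of its larval partner (vertical axis, bp, log scale) in the 2930 single pairs, with the number of pairs per cell as shading and equal width as the dashed line. Most pairs (64.1%) lie below the line, where the embryonic peak is the wider.

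The distance between midpoints is bounded by the rule, since paired peaks must overlap. Its median was 183 bp (176 to 195), and it was at most 250 bp in 62.3% of pairs (60.5 to 64.0) and over 1000 bp in 2.35% (1.84 to 2.97). At least 50% of both peaks was shared in 58.2% of pairs (56.4 to 60.0). Some pairs differed strongly in extent. On 3L a larval peak of 13289 bp, from 3239191 to 3252479, met an embryonic peak of 495 bp, a ratio of 26.8. On 2L a larval peak of 5716 bp from 18463523 to 18469238 met an embryonic peak of 283 bp, a ratio of 20.2. The opposite was found on 3R, where an embryonic peak of 7355 bp from 21415997 to 21423351 met a larval peak of 345 bp, a ratio of 0.047. On 2R an embryonic peak of 5439 bp from 15141263 to 15146701 met a larval peak of 427 bp, a ratio of 0.079.

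The lists were closer in the total length of covered sequence than in peak number. Embryonic peaks covered 13.0 Mb and larval peaks 7.62 Mb, and 4.46 Mb was common to both. This was 34.3% of the embryonic, 58.5% of the larval and 27.6% of the combined sequence. With every peak set to 500 bp, the share of embryonic sequence was 13.5%. Kept peaks made up 51.3% of embryonic sequence though they were 31% of the peaks, and 66.8% of their sequence lay inside larval peaks. Peaks not called in larvae held 6.33 Mb, 48.7% of the embryonic sequence. On the larval side, peaks with an embryonic counterpart held 77.4% of the sequence, and 75.6% of that lay inside embryonic peaks. The pair with the most sequence in common was the one on X described above, with 11339 bp. It was followed by 3R from 12059390 to 12069003 (9614 bp) and 2L from 2195318 to 2203844 (8527 bp), where the larval peak lay wholly inside the embryonic one.

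Embryonic peaks on X were kept more often than those on any other arm. On X 763 of 1701 embryonic peaks (44.9%, 42.5 to 47.3) were kept, against 3886 of 13312 on the autosomes (29.2%, 28.4 to 30.0). The difference was 15.7 percentage points (13.2 to 18.2). The autosomal arms lay between 26.1% (24.5 to 27.7) on 2L and 30.7% (29.1 to 32.3) on 3L. On 2R the share was 30.3%, on 3R 29.4%, and on the small chromosome 4 it was 30.1% (23.1 to 38.0) of 156 peaks. The interval of 2L lay below those of 2R, 3L and 3R, which overlapped one another.

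The excess on X was present at every width. In 4 width classes from narrow to broad, X peaks were kept in 19.6, 30.6, 41.0 and 77.4% of cases and autosomal peaks in 10.4, 16.1, 27.9 and 63.7%. The differences were between 9.13 (5.20 to 13.7) and 14.5 (10.1 to 19.3) percentage points. The share of sequence gave the same order, with 49.5% of embryonic base pairs on X shared with larval peaks and 32.1% on the autosomes.

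Fewer embryonic peaks without a counterpart, rather than more kept ones, distinguished X. Per Mb of the span covered by the lists, X held 34.0 kept and 41.8 not called embryonic peaks, and the autosomes 39.7 kept and 96.2 not called. Larval peaks were about as dense on X as on the autosomes, with 50.2 and 54.1 per Mb. Read from the larval side, the order of X and the autosomes was reversed. An embryonic counterpart was found for 62.1% (59.2 to 64.9) of larval peaks on X and for 68.3% (67.0 to 69.6) on the autosomes. In single pairs the median ratio of larval to embryonic width was 0.932 on X, between 0.701 (3R) and 0.829 (2L) on the large autosomal arms, and 1.08 on chromosome 4 with 36 pairs.

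The prepupa list showed the same direction for embryonic peaks on X, and the S2 list did not. Embryonic peaks overlapped a prepupal peak in 39.3% (36.9 to 41.6) of cases on X and 27.1% (26.3 to 27.9) on the autosomes. For S2 peaks the values were 19.6% (17.8 to 21.6) on X and 25.7% (24.9 to 26.4) on the autosomes. The larva and prepupa libraries come from the same study and from whole animals, and source and stage cannot be told apart here.

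**Figure D3:**
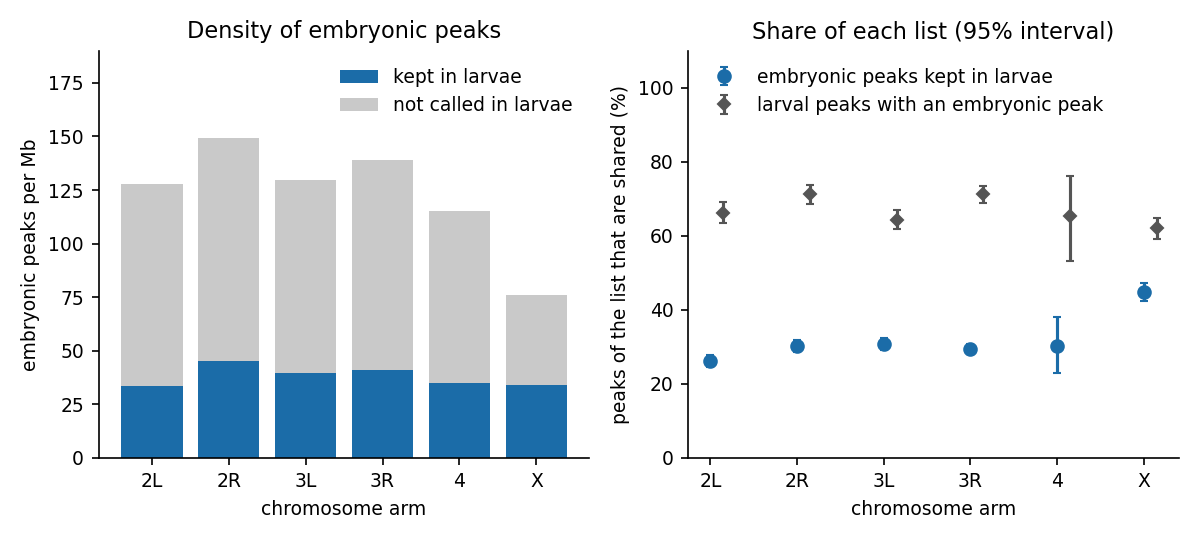
Left, embryonic peaks per Mb of each arm, divided into those kept and those not called in larvae. Right, share of embryonic peaks kept and share of larval peaks with an embryonic counterpart per arm, with exact 95% intervals. X has 41.8 not called peaks per Mb, the lowest of the 6, and the highest share kept (44.9%).

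Position along the arm gave no trend shared by all 5 large arms. Each of these arms was divided into 10 equal parts from telomere to centromere. Over the 5 arms together the share kept was lowest next to the centromere, with 24.2% (21.7 to 26.9) of 1053 peaks. In the other parts it was between 28.5% and 35.7%. The part next to the centromere was the lowest of its own arm only on 3L, but was also low on 2L (19.0%) and 3R (24.9%). On 3L the share kept was lowest in the part next to the centromere (19.2% of 156 peaks) and highest 2 parts before it (41.3% of 322). On 2R it was lowest in the part next to the telomere (18.8% of 399 peaks). On X it was between 34.3% and 55.1%, with 44.1% of 68 peaks next to the centromere.

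Embryonic peaks with many embryonic neighbours within 25 kb were kept less often. Local density was counted as the number of other embryonic peak midpoints within 25 kb on either side. Kept peaks had a median of 10 such neighbours and peaks not called had 11. With 0 to 7 neighbours 34.0% (32.7 to 35.4) were kept, with 8 to 11 33.4% (32.0 to 34.9), with 12 to 14 30.0% (28.4 to 31.8) and with 15 to 30 25.2% (23.8 to 26.6). The difference between the densest and the sparsest class was -8.86 percentage points (-10.8 to -6.88). It was -15.6 points (-19.7 to -11.4) among the broadest of 4 width classes and -3.57 points (-6.25 to -0.82) among the narrowest. Median width differed little between the density classes, from 531 to 547 bp. At short range the order was the other way, with peaks on the same larval peak counted separately. With another embryonic peak under 500 bp away 34.8% (33.7 to 35.9) were kept, against 27.2% (25.5 to 29.0) at 500 to 1000 bp and 29.6% (26.1 to 33.3) at 10 kb or more. The nearest other embryonic peak was a median of 438 bp (409 to 463) from kept peaks and 614 bp (594 to 639) from those not called. Larval peaks that span several embryonic ones contribute to the short-range values. Beside a kept peak under 500 bp away, 58.5% were kept. Leaving out pairs on the same larval peak, which removes kept peaks only, gave 26.5% (24.3 to 28.9). A higher share at short range was therefore not shown apart from such larval peaks.

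Part of this contrast coincided with X, where embryonic peaks were sparse. On the autosomes alone the difference was -6.41 points (-8.50 to -4.31). On X the share did not follow this order. It was 42.6% (39.6 to 45.7) of 1053 peaks in the sparsest class, 49.0% (44.4 to 53.5) of 484 in the next, 61 of 122 (interval 40.8 to 59.2%) in the one after and 38.1% (23.6 to 54.4) of the 42 in the densest. The difference between the end classes on X was -4.54 points (-18.0 to 10.8). For the prepupa list the same density classes ran only from 28.8% (sparsest) to 27.7% (densest), and for the S2 list from 21.2% to 25.8%. On the autosomes alone they ran from 26.2% to 27.6% for the prepupa list and from 22.0% to 25.7% for the S2 list. The lower share in dense embryonic surroundings was thus seen with the larval list. With the S2 list the share was higher there. With the prepupa list it differed little, and its direction was not the same on the autosomes alone. The difference between lists was not tested.

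Density of larval peaks went the other way. Leaving out a peak's own larval partners, 14.9% (13.1 to 16.7) of the 1562 embryonic peaks without any further larval peak within 25 kb were kept. The share was 29.0% (27.7 to 30.4) with 2 or 3 further larval peaks and 41.4% (39.4 to 43.4) with 7 to 19. Median embryonic width over these classes was 495, 540 and 560 bp. Kept is defined by overlap with the same larval list, so a higher share among dense larval peaks is partly built in. No share expected from larval density was computed.

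Peaks not called in larvae lay closer to one another than to kept peaks. The median distance from a peak not called in larvae to the nearest kept embryonic peak was 5813 bp (5601 to 6014), and 18.0% (17.3 to 18.8) lay within 1 kb of one. The nearest other peak that was not called was much closer, at a median of 972 bp (929 to 1004). From kept peaks, the nearest other kept peak was 1775 bp away (1627 to 1909) and the nearest peak not called 2035 bp (1901 to 2153). Kept peaks are fewer than those not called, so the first and second of these distances are not on equal terms. Counting each group of joined peaks once, the nearest other kept group was 4157 bp away (3907 to 4487). The shorter distance between single kept peaks thus includes peaks that lie on the same larval peak. Peaks not called were not grouped in a like way.

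The state of the nearest embryonic peak went with that of the peak itself. When the nearest peak was kept, 49.2% (47.8 to 50.6) were kept, and when it was not called, 22.4% (21.6 to 23.2). In each of 4 width classes the same order held, with 24.7% against 5.04% in the narrowest and 79.9% against 58.1% in the broadest. With the nearest peak under 500 bp away, the values were 58.5% and 21.8%. Larval peaks that span several embryonic ones contribute to this: of the 2369 kept peaks with a kept nearest neighbour, 1301 (54.9%) lay on the same larval peak as that neighbour. Leaving those cases out removes kept peaks only and gave 30.4% (28.9 to 31.9) over all distances, against 22.4% beside a peak not called. For nearest peaks under 500 bp away it gave 26.5% (24.3 to 28.9) in place of 58.5%, against 21.8% (20.6 to 23.0). Beyond 10 kb the shares were 39.7% (32.7 to 47.0) and 25.3% (21.4 to 29.6).

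**Figure D4:**
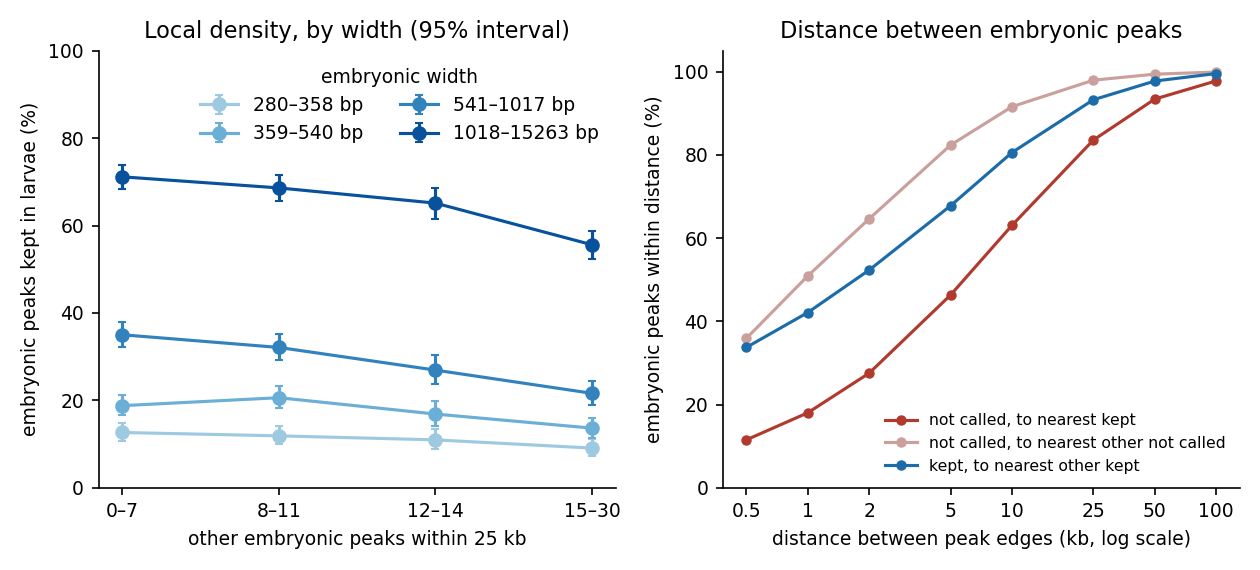
Left, share of embryonic peaks kept in larvae by the number of other embryonic peaks within 25 kb, for 4 width classes, with exact 95% intervals. Right, cumulative share of embryonic peaks whose nearest kept or not called embryonic peak lies within a distance (kb, log scale). Within 1 kb, 18.0% of the peaks not called have a kept peak and 50.9% another peak not called.

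Peaks not called beside kept sites were as wide as those far away. Peaks not called within 1 kb of a kept peak had a median of 452 bp, and those at 25 kb or more had 451 bp. They differed in the other lists. S2 peaks overlapped 23.9% of the 1869 not called peaks within 1 kb of a kept peak, 15.5% at 1 to 5 kb, 8.24% at 5 to 25 kb and 4.75% of the 1707 beyond. Prepupal peaks overlapped 14.1, 9.25, 7.08 and 7.73% in the same order.

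Runs of neighbouring embryonic peaks without a larval counterpart could be long. Along the arms 224 runs of at least 10 consecutive embryonic peaks were not called, with 3529 peaks or 34.1% of all those not called. Kept runs were mostly short: of 2530 kept runs, 1473 were a single peak. Those single peaks are a minority of the 4649 kept peaks. Of the kept runs 11 had at least 10 peaks, with 126 peaks or 2.71% of those kept. Kept peaks are also fewer, and no run length expected from their number was computed. The longest run not called, on 2L from 19182636 to 19360407, held 49 embryonic peaks over 178 kb and no larval peak, with 9 prepupal and 4 S2 peaks. The next, on 3R from 11236735 to 11505247, held 47 embryonic peaks and 4 larval peaks that touched none of them, with 19 prepupal and 10 S2 peaks. On 3L from 13042439 to 13208068, 36 embryonic peaks stood without a larval or S2 peak but with 7 prepupal peaks. The longest kept run was on X from 12547516 to 12638953, with 18 embryonic, 16 larval, 24 prepupal and 15 S2 peaks. It was followed by 3L from 17979170 to 18023073 with 13 embryonic and 16 larval peaks.

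Sites were also counted in fixed windows of 50 kb. Of the 1273 windows with at least 5 embryonic peaks, 156 (12.3%) had none kept and 8 (0.628%) had all kept, and the median share kept was 30.0%. Windows on 3L from 15300001 to 15350000 and from 9000001 to 9050000 each held 25 embryonic peaks with none kept. The first had 0 larval, prepupal and S2 peaks and the second had 1 larval and 3 prepupal peaks. On 2L from 6200001 to 6250000, 19 embryonic peaks stood alone, with 0 in each other list. The windows with the most kept peaks were on 2R from 2000001 to 2050000 and from 9850001 to 9900000, with 14 kept of 20 and of 21. On 3L from 17950001 to 18000000, 13 of 15 were kept.

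Windows with peaks in 1 list alone occurred in both directions, on unequal terms because the embryo list is longer. Of the 1273 windows with at least 5 embryonic peaks, 120 held no larval peak, and of the 561 windows with at least 5 larval peaks, 6 held no embryonic peak. These 6 were picked out after their values were seen. Neighbouring windows of this kind lay on X from 1450001 to 1500000 and from 1500001 to 1550000, with 5 and 10 larval, 6 and 9 prepupal and 1 and 3 S2 peaks. The window on 2L from 7700001 to 7750000 held 8 larval, 6 prepupal and 1 S2 peaks, and the one on 2R from 8250001 to 8300000 held 5, 5 and 1. S2 peaks were as many as larval ones or more in the remaining windows. The window on 3L from 2150001 to 2200000 held 5 larval, 3 prepupal and 6 S2 peaks, and that on 3R from 14250001 to 14300000 held 5 of each.

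Kept embryonic peaks were also found in the other 2 lists, which played no part in the rule. Over all embryonic peaks 28.5% overlapped a prepupal and 25% an S2 peak. Of the kept peaks, 71.7% (70.4 to 73.0) overlapped a prepupal peak, against 9.07% (8.52 to 9.64) of those not called, a difference of 62.7 percentage points (61.2 to 64.1). For S2 the shares were 52.7% (51.3 to 54.1) and 12.5% (11.9 to 13.2), a difference of 40.2 points (38.6 to 41.7). The contrast was present at every width. Among embryonic peaks of 280 to 358 bp, 65.8% of the kept and 6.19% of the not called peaks overlapped a prepupal peak, and 40.6% and 11.3% an S2 peak. Among those of 1018 bp or more the shares were 78.2% and 18.1% for prepupae and 60.3% and 18.3% for S2 cells.

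**Figure D5:**
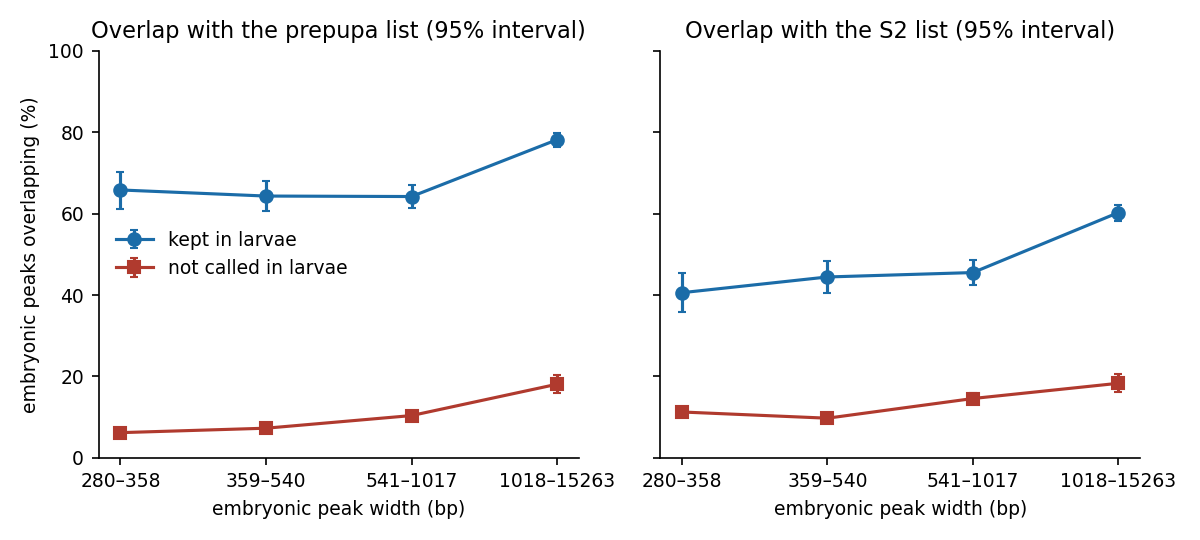
Share of embryonic peaks overlapping a prepupal peak (left) or an S2 peak (right) in 4 classes of embryonic width (horizontal axis, bp), for peaks kept and not called in larvae, with exact 95% intervals. Kept peaks lie far above those not called in every class, from 65.8% against 6.19% in the narrowest class for prepupae.

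Some embryonic sites were without a larval call but were called in prepupae. These were 940 peaks, 6.26% of the embryonic list, with a median width of 583.5 bp (549 to 619). The 9424 embryonic peaks called neither in larvae nor in prepupae had a median of 439 bp (433 to 445). Of the 940, 29.8% had a larval peak within 1 kb, against 15.4% of the 9424, and 20.5% against 11.7% overlapped an S2 peak. In contrast, 1314 embryonic peaks were kept in larvae but not called in prepupae, with a median of 848 bp (806 to 898), and 3335 were called in all 3 animal lists, with a median of 1227 bp (1179 to 1280). A gap at the larval stage and a site just missed by the larval calls cannot be told apart.

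Larval peaks without an embryonic counterpart were narrower, but most of them were found again in prepupae. The 2107 peaks had a median of 605 bp (578 to 628), against 959 bp (930 to 991) for the 4319 with a counterpart. Over all larval peaks 68.3% overlapped a prepupal and 44.7% an S2 peak. A prepupal peak overlapped 63.1% (61.0 to 65.1) of those without and 70.8% (69.5 to 72.2) of those with an embryonic peak. Within width classes the order was not the same. Among larval peaks in the narrowest of 4 classes, 45.0% (41.5 to 48.6) of those without and 37.0% (33.7 to 40.4) of those with an embryonic peak overlapped a prepupal peak. In the broadest class the shares were 95.9% and 97.6%. For S2 cells, larval peaks with an embryonic counterpart had the higher share in every width class, with 34.0% against 22.5% in the narrowest and 73.4% against 56.7% in the broadest.

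Larval peaks with an embryonic counterpart also had more embryonic peaks around them. Within 25 kb and leaving out their own partners, they had a median of 9 embryonic peaks and those without a counterpart had 6, while both had a median of 4 other larval peaks. A counterpart is defined by overlap with the same embryo list, so a higher count around these peaks is partly built in. The nearest embryonic peak was a median of 2812 bp (2542 to 3060) from a larval peak without a counterpart. X held 20.3% of the larval peaks without and 16.2% of those with an embryonic counterpart.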

How the data were processed

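The deposited lists hold 3 columns, the chromosome, start and end of a peak, with no height, fold or p-value. Per the submitters' processing notes, BWA, MACS2 and the build dm3 were used for the samples. For the embryo list no processing is stated, and for all lists versions, threshold, filters and the use of input are not given here. Peaks on the 6 arms were paired when they shared at least 1 bp. Shared base pairs, gaps between peak edges, neighbours within 25 kb of a midpoint and counts in 50 kb windows were computed with Python 3.11.15, numpy 2.4.6, pandas 2.3.3 and scipy 1.17.1, and drawn with matplotlib 3.10.9. The functions were tested on simulated data and against bedtools 2.31.1. The arm span ends at the highest peak end of any of the 4 lists. Width, arm and density classes, 5 alternatives of pairing and list, and 2 density windows were used. Named sites are the 10 widest kept and not called peaks and leading pairs, runs and windows, given here in part. The comparison and its measures were chosen with earlier results of these data known. Depth is unknown. The 3 input samples have no values here.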

Additional observations from a re-analysis of the deposited data

Results flagged for a closer look

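Peaks outside the 6 arms entered no comparison above. The embryo list had 359 such peaks, 254 of them on the unplaced sequence Uextra, and the larva list had 61. Of these embryonic peaks, 30 (8.36%, 5.71 to 11.7) overlapped a larval one, and 28 of the 61 larval peaks (45.9%, 33.1 to 59.2) overlapped an embryonic one. On the mitochondrial genome all 6 embryonic peaks overlapped a larval peak. They are listed because they lie outside the main measurement and no control gives a level for them.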

How the results depend on the processing

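No difference changed its sign among the 61 recomputed values. These also include shares, widths and distances, which cannot be negative and so could not change sign. Of the 61 values, 35 left the interval of the reported value. A further 6 are of shared sequence, which has no interval of its own. In the order 50% of the shorter peak covered, midpoint rule, same number of widest peaks (6426 per list), 500 bp peaks, peaks under 1 kb apart joined, and, chosen after seeing the data, embryonic peaks of at least 320 bp, embryonic peaks were kept in 28.3, 24.9, 51.6, 22.3, 38.0 and 34.4% of cases. Larval peaks had a counterpart in 63.0, 57.0, 54.4, 51.1, 72.4 and 65.0%. Shared sequence was 33.4, 29.3, 42.0, 13.5, 32.9 and 35.6% of the embryonic. With equal numbers of widest peaks most embryonic peaks were kept, so the statement that most were not called does not hold there. Median widths of kept peaks were 1165 (50% rule), 1459 (widest), 2022 (joined) and 1152 bp (at least 320 bp), and of peaks not called 467 (midpoint), 929, 545 and 519 bp. The median distance from a not called to a kept peak was 7542 (midpoint), 7075 (widest), 7423 (500 bp) and 8867 bp (joined). The X difference moved to 11.9 points with 500 bp peaks. The density difference was -6.32 (widest), -12.5 (joined) and, chosen later, -6.41 (autosomes), and it kept within its interval with 10 kb and 100 kb windows. The prepupal difference was 54.6 (midpoint), 58.5 (widest) and 46.1 points (500 bp). Between the widest and narrowest of 4 width classes the share kept differed by 54.2 points, and by 39.6 to 62.0 under the alternatives, added later for this value. No paired analysis was possible because each stage has 1 list. Depth is unknown and limits every statement on peaks that were not called.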
